A study of Homo sapiens with 6 samples.

Results

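Kinesins are ATP-driven motors that walk along microtubules or shorten them. One branch of the family builds and moves the mitotic spindle and finishes cell division, and its genes are mostly switched on late in the cell cycle. Another branch carries vesicles, organelles and protein complexes through the cell between divisions, and smaller branches work in cilia or in signalling. Proliferating blood precursors use the mitotic branch at every division, and the transport branch serves their granules and endosomes. The genes described here are the 33 rows, out of 14821 genes in the deposited count table, whose symbol is KIF with a number and at most 1 letter, or KIFC with a digit. The kinesins CENPE and STARD9 carry other names and are not among them.

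RNA was sequenced from F36P, an established human erythroleukaemia cell line, in 6 libraries. Of these, 3 libraries (ERG) came from cells transduced with MSCV-PIG-AM-ERG, a retrovirus expressing the ETS transcription factor ERG, and 3 (vector) from cells with the empty MSCV-PIG virus, whose genotype is labelled WT. Both groups had been kept under puromycin, at 1 µg/ml over 4 days, to select for the virus. The submitters asked how ERG blocks red cell differentiation. The labels call the replicates biological without naming cultures or transductions, so the spread that p-values measure here may be technical.

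Library totals ran from 12421407 to 14803031 counts with ERG and from 10257141 to 13615797 with vector. ERG itself averaged 101 ± 3.47 CPM in ERG libraries and 21.7 ± 6.75 CPM in vector libraries (SD, n = 3 each), where CPM is the count scaled to library size after TMM normalisation. ERG replicates 1 and 2 were much closer to each other (chi-square 2.20 per degree of freedom) than any other pair of libraries (21.6 to 86.9). The libraries also fell into 2 sets that cut across the groups. ERG 1, ERG 2 and vector 1 formed the first, and ERG 3, vector 2 and vector 3 the second. Counts of calls are therefore also given with the set as a term. The labels name no batch and the sets were taken from these same data, so p-values with the term are no independent support. All 8 erythroid markers looked up were present, at summed levels of 2521 to 4519 CPM in ERG libraries and 9104 to 15550 CPM in vector libraries. Megakaryocyte markers (5 of 6 in the table, PF4 not analysed here) summed to 1297 to 2391 CPM with ERG and 535 to 1158 CPM with vector. Most of this sum was ITGA2B, whose groups overlapped (edgeR adjusted p = 0.209), and GP9 did not pass either (log2 0.23, 0.724). ITGB3, GP1BA and PPBP passed as higher with ERG (edgeR adjusted p = 0.0128, 0.0251 and 0.0471). All 5 mast cell markers were present and summed to 1783 to 1855 CPM with ERG and 579 to 902 CPM with vector. The part of these differences in marker levels in the kinesin results was not tested, and in bulk RNA fewer cells of a type and less RNA per cell cannot be told apart.

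Of the 33 kinesins, all of them tested, 3 rose and 0 fell at an edgeR adjusted p of 0.05. The 3 were KIF19, KIF26B and KIF3C. Of all 14203 tested genes 2.2% passed, 1.47% as higher and 0.732% as lower. With the library set as a term 5 kinesins were higher and 2 lower, where 13.2% of all genes passed, 7.2% as higher and 5.96% as lower. The median log2 fold change of the 33 was 0.10, against -0.01 over all tested genes. ERG libraries lay entirely above vector libraries for 5 members and entirely below for 2, while the groups were free of overlap for 21.8% of all tested genes, 12.3% with ERG above and 9.54% with ERG below.

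**Figure D1:**
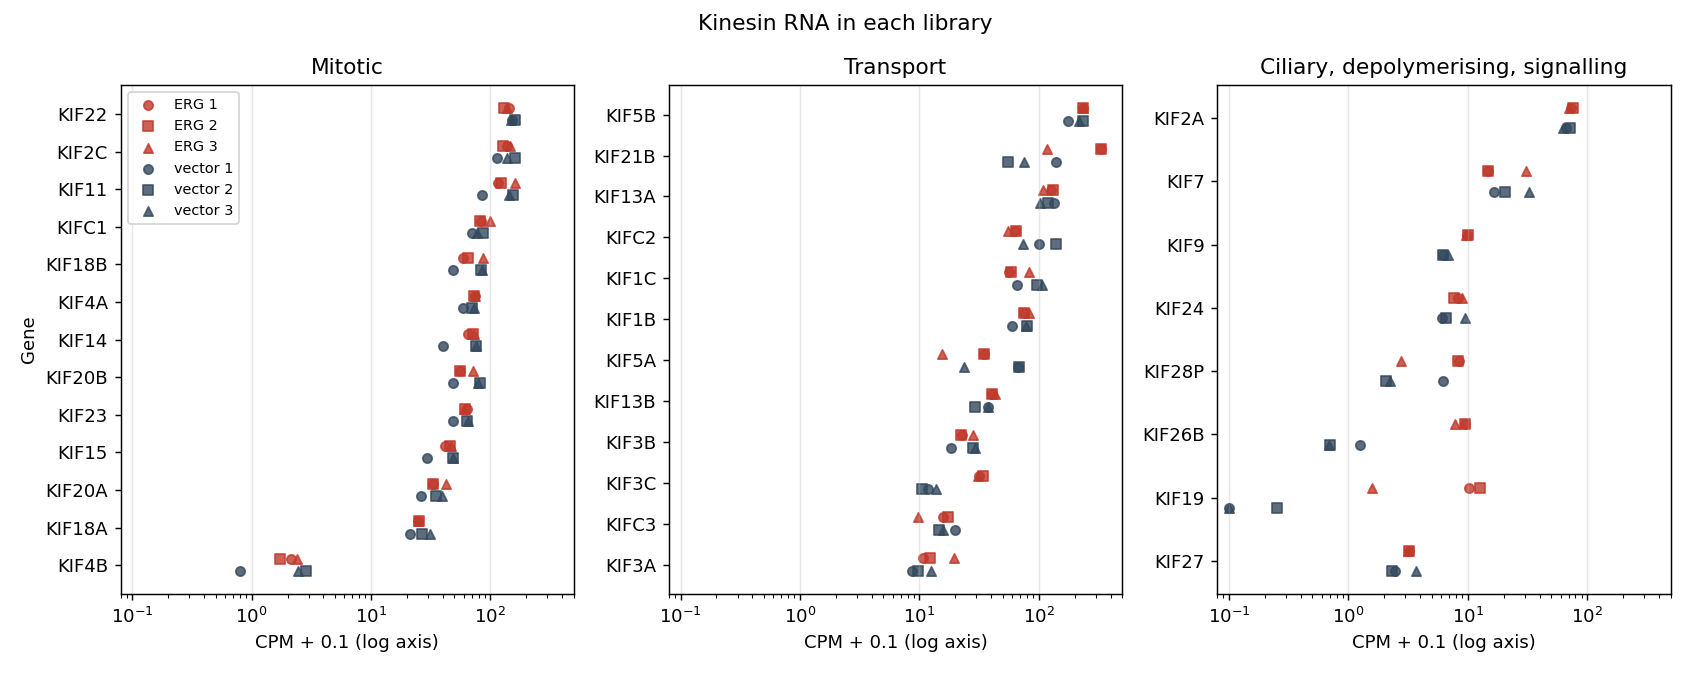
CPM + 0.1 (log axis) of each of the 33 kinesin genes in each library, ERG libraries drawn above vector libraries on each row, in 3 panels by role. KIF19, KIF26B and KIF3C show separate groups. The groups overlap for all mitotic kinesins except KIF22, while groups were free of overlap for 21.8% of all tested genes. Vector 1 is the lowest library in 12 of 13 mitotic kinesins.

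Per kilobase of annotated exon, the kinesin RNAs covered a wide range of levels. The highest mean levels in ERG libraries were those of KIF5B, the ubiquitous heavy chain of conventional kinesin, at 40.2 ± 0.132, and of KIF2C, a microtubule depolymerase of the spindle, at 37.6 ± 2.35 CPM per kilobase (SD, n = 3). In vector libraries KIF5B stood at 35.7 ± 5.30 and KIF2C at 37.7 ± 6.18 CPM per kilobase, a gap within their spread, while in ERG libraries the gap was larger than either SD. KIF22 and KIF11 came next in both groups. KIF21B held rank 6 of the 33 in ERG libraries and rank 18 in vector libraries. KIF19 was the lowest of the 33 in vector libraries, at rank 33, and held rank 29 in ERG libraries.

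KIF19 encodes a motor of the kinesin-8 family, which in the mouse shortens microtubules at the tips of motile cilia and so sets cilium length. It lies on chromosome 17 from 74326210 to 74355820 on the plus strand (hg38, GENCODE release 29). Its reads numbered 131, 185 and 22 in ERG replicates 1, 2 and 3, against 0, 2 and 0 in vector replicates 1, 2 and 3. Every ERG library was above every vector library, and ERG 3 was far below the other ERG libraries. In CPM the ERG libraries stood at 10.2, 12.7 and 1.49, and vector replicate 2 at 0.152. A count of 0 allows up to 0.264 CPM in vector replicate 1 and 0.293 CPM in vector replicate 3, taking 3 counts per library as the limit. Summed over libraries, 338 counts with ERG and 2 with vector gave a ratio of 139 (95% binomial interval 38.3 to 1155, which covers counting error only). The edgeR adjusted p was 0.034. Leaving out any 1 library except ERG replicate 3 ended the call (edgeR adjusted p = 0.12 without ERG 1, 0.125 without ERG 2, 0.0658 without vector 1, 0.168 without vector 2 and 0.128 without vector 3), as did limma-voom (0.0864). Within the library sets, the difference of log2 CPM, computed with a prior count of 2, was 6.21 where ERG 1 and ERG 2 were set against vector 1, and 2.91 where ERG 3 was set against vector 2 and vector 3.

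KIF26B encodes a kinesin-11 relative that is thought not to walk along microtubules and is known from Wnt signalling and, in the mouse, kidney development. It lies on chromosome 1 from 245154985 to 245709431 on the plus strand. Its level was 9.38, 9.39 and 7.74 CPM in ERG replicates 1, 2 and 3, against 1.14, 0.609 and 0.587 CPM in vector replicates 1, 2 and 3. All ERG libraries were high and close together, ERG 3 included. The rise was 11.2-fold (log2 3.49, SE 0.34, edgeR adjusted p = 0.01), from 371 counts in the ERG libraries and 27 in the vector libraries. The log2 difference was 2.88 within the set of ERG 1, ERG 2 and vector 1 and 3.39 within the other set. The call was lost without ERG 1, ERG 2 or vector 2 (edgeR adjusted p = 0.0716, 0.0729 and 0.0538).

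KIF3C encodes a kinesin-2 subunit, abundant in neurons, that pairs with KIF3A. It lies on chromosome 2 from 25926596 to 25982749 on the minus strand. Its level was 31.7, 33.8 and 30.9 CPM in ERG replicates 1, 2 and 3, against 11.8, 10.4 and 13.6 CPM in vector replicates 1, 2 and 3. The groups were tight and far apart. The rise was 2.69-fold (log2 1.43, SE 0.16, edgeR adjusted p = 0.0124), with log2 differences of 1.46 and 1.36 within the sets that hold vector 1 and ERG 3. Without ERG 1, ERG 2 or vector 2 the call was lost (edgeR adjusted p = 0.0824, 0.0946 and 0.0593). When ERG replicates 1 and 2 were summed into 1 library none of the 14203 genes passed in edgeR (1277 at an unadjusted p under 0.05), and KIF26B, KIF3C and KIF19 had edgeR adjusted p of 0.0738, 0.088 and 0.123. With the library set as a term these 3 genes passed with all libraries (edgeR adjusted p = 1.2e-04, 2.74e-04 and 9.26e-04). They also passed with the sum under that term, an alternative chosen after seeing the data (edgeR adjusted p = 5.04e-04, 1.28e-03 and 2.47e-03). The sets came from these same data, so neither result is independent support for the calls.

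**Figure D2:**
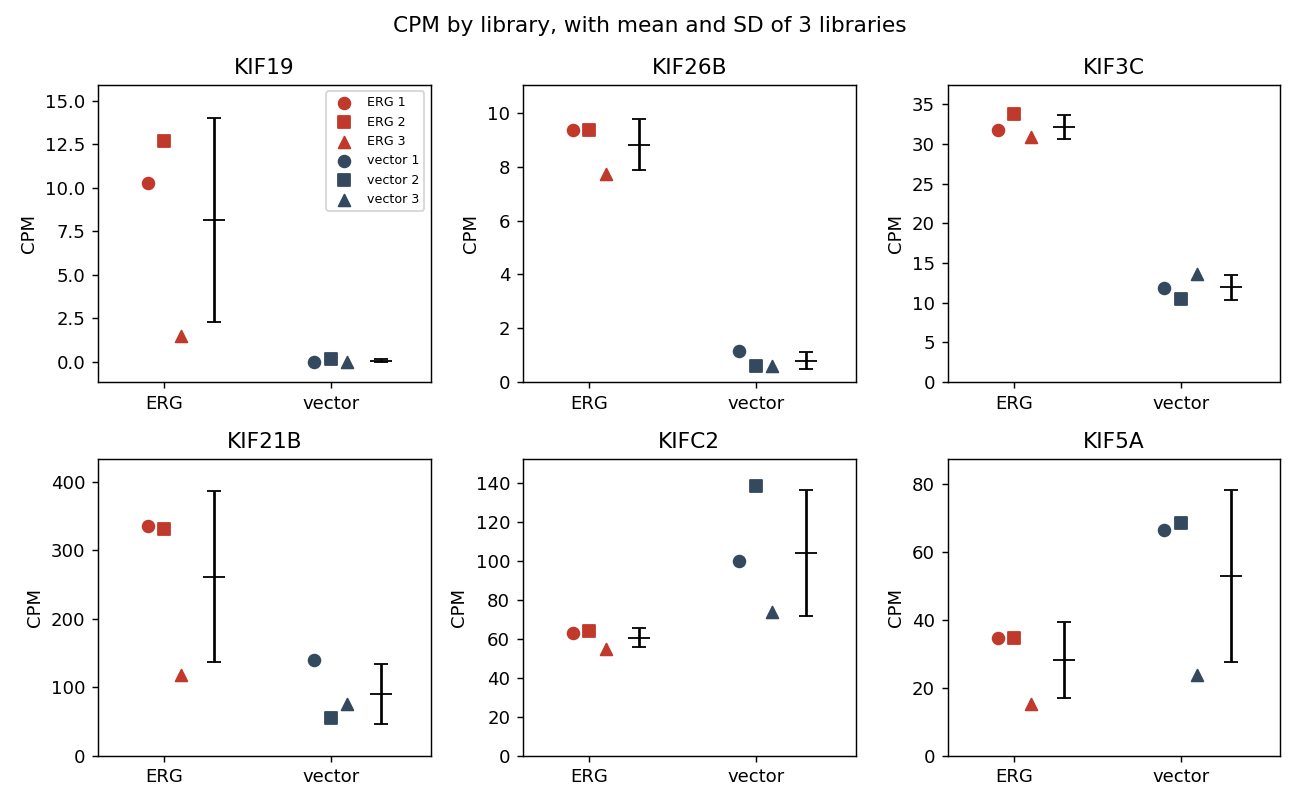
CPM of 6 kinesin genes in each ERG library (left) and vector library (right), with the mean and SD of 3 libraries in black. KIF26B and KIF3C separate cleanly, KIF19 is near 0 in vector libraries, with ERG 3 well under ERG 1 and ERG 2, and KIF21B, KIFC2 and KIF5A vary widely between libraries of 1 group.

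The other kinesin-2 motor subunits did not pass with KIF3C. KIF3A, which forms a motor with KIF3B that builds cilia and moves cargo, stood at 10.6, 12.1 and 19.4 CPM in ERG libraries 1 to 3 and at 8.53, 9.74 and 12.4 CPM in vector libraries 1 to 3 (log2 0.46, edgeR adjusted p = 0.472). With the set term its log2 difference was 0.63 (edgeR adjusted p = 0.048), and with ERG 1 and ERG 2 also summed it no longer passed (0.109). KIF3B was at 24.4 ± 3.15 CPM with ERG and 25.3 ± 5.91 CPM with vector (log2 -0.05, edgeR adjusted p = 0.926). KIF3A is also the partner of KIF3C. The ratio of KIF3C to KIF3A RNA per kilobase was 3.20, 2.98 and 1.70 in ERG libraries 1 to 3, against 1.48, 1.15 and 1.17 in vector libraries 1 to 3. It was above 1 in every library and higher in each ERG library than in each vector library. The ratio of KIF3C to KIF3B per kilobase was 1.33, 1.44 and 1.05 in ERG libraries 1 to 3, against 0.608, 0.356 and 0.442 in vector libraries 1 to 3. KIFAP3, the adaptor that joins these motors to cargo, had a log2 difference of 0.33 without passing (edgeR adjusted p = 0.411).

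The KIF3C promoter is shown because KIF3C is the only one of the 3 risen members with an entry in the RefSeq promoter table (GRCh38.p14), which covers 250 bases before to 50 after the start and matched 24 of the 33 members. Capitals mark GGAA, the core that ETS factors recognise, searched on both strands.
KIF3C, chr2:25982448-25982747, minus strand: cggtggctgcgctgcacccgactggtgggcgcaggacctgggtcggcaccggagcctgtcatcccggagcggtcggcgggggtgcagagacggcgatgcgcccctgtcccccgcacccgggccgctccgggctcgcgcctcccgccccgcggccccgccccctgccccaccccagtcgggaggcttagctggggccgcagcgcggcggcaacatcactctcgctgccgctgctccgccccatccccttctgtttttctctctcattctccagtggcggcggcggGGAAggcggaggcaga
It held 1 GGAA, downstream of the RefSeq start. The window lies wholly within the GENCODE bounds of KIF3C, whose upstream end is 25982749, so the start used here is not the outermost one. GGAA occurs in 95.5% of all 35116 promoters of this length, with a median of 3 matches, and in all 24 kinesin promoters in the table. The longer form CGGAAG, which contains GGAA, was found in 19.5% of all promoters and in 7 of 24 kinesin promoters, KIF3C not among them. It was in 6 of 13 mitotic promoters and 0 of 7 transport promoters. Of the 4 promoters of ciliary, depolymerising and signalling members, 1 held it.

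Among the 12 transport kinesins in the table, 1 (KIF3C) rose and 0 fell, where 2.2% of all tested genes passed. The model with sets gave 3 higher and 2 lower, where 13.2% of all tested genes passed. Their median log2 fold change was 0.07 and the median of its size 0.34, against 0.25 for the size over all tested genes. KIF21B, a kinesin-4 motor of neurons and immune cells that also restrains microtubule growth, had the largest difference in this group. It was at 335, 331 and 117 CPM in ERG replicates 1, 2 and 3, against 139, 55.2 and 75.0 CPM in vector replicates 1, 2 and 3. ERG 3 lay under vector 1, so the groups overlapped. The log2 fold change of 1.54 (SE 0.47) did not pass (edgeR adjusted p = 0.165), but did with the set term (1.06, 0.00114), in DESeq2 (0.015) and without ERG 3 (1.90, 0.0491). Within the sets its log2 difference was 1.26 and 0.86.

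KIFC2, a minus-end motor best known from neurons, and KIF5A, the neuron-enriched heavy chain of conventional kinesin, were the transport members with the most negative differences. KIFC2 was at 62.7, 64.0 and 54.8 CPM in ERG replicates 1, 2 and 3, against 99.9, 138 and 73.7 CPM in vector replicates 1, 2 and 3. All ERG libraries were below all vector libraries. Its log2 difference of -0.78 (SE 0.23) did not pass (edgeR adjusted p = 0.144), but did with the set term (-0.81, 0.0329) and in DESeq2 (-0.79, 0.0357). With ERG 1 and ERG 2 summed under the set term that call was lost (edgeR adjusted p = 0.0634). Of its annotated exon bases 17.8% are shared with FOXH1 on the opposite strand, and the sources do not say whether reads were counted by strand. KIF5A was at 34.7, 34.7 and 15.3 CPM in ERG replicates 1, 2 and 3, against 66.6, 68.7 and 23.8 CPM in vector replicates 1, 2 and 3. Replicate 3 was the low library in each group, so the groups overlapped. Its log2 difference of -0.91 (SE 0.45, edgeR adjusted p = 0.382) passed with the set term (-1.25, 0.0411), though not when ERG 1 and ERG 2 were also summed (0.068). The ratio of KIF5A to its ubiquitous relative KIF5B per kilobase was 0.138, 0.138 and 0.0605 in ERG libraries 1 to 3, against 0.357, 0.273 and 0.103 in vector libraries 1 to 3.

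The other transport kinesins did not pass in either model. KIF5B was at 235, 237 and 237 CPM in ERG libraries 1 to 3 and at 175, 236 and 218 CPM in vector libraries 1 to 3 (log2 0.17, 95% interval -0.17 to 0.52, edgeR adjusted p = 0.608). KIF13A, a motor of recycling endosomes and melanosome cargo, was at 128, 131 and 108 CPM in ERG libraries and at 135, 121 and 103 CPM in vector libraries (log2 0.04, 95% interval -0.32 to 0.39, edgeR adjusted p = 0.928). KIF1B, KIF1C, KIF3B, KIF13B and KIFC3 made up the rest. Across these 7 genes the largest difference was 0.43 on the log2 scale, and their 95% intervals together spanned -0.96 to 0.60. Of KIF13B all ERG libraries were above all vector libraries (41.3 ± 1.45 against 34.8 ± 5.05 CPM), without passing (edgeR adjusted p = 0.47).

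None of the 13 mitotic kinesins passed in the edgeR fit with or without the set term, where 13.2% and 2.2% of all tested genes did. The lowest edgeR adjusted p with the set term was 0.0985 (KIFC1, log2 0.25). In the fit without it 0 of the 13 had an unadjusted p under 0.05, against 15.9% of all tested genes. The lowest edgeR adjusted p there was 0.549, and DESeq2 called 0 as well. Their median log2 fold change was 0.06 and the median of its size 0.09, with values from -0.19 to 0.17. Without KIF4B, which had only 84 counts with ERG and 68 with vector, the 95% intervals of the other 12 together spanned -0.71 to 0.69, with those of single genes narrower (KIF22 -0.43 to 0.11). KIF4B is an intronless copy of KIF4A, and how reads were divided between the 2 copies is uncertain.

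Of the 4 mitotic members with the highest CPM, 3 had overlapping groups. KIF22, a chromosome-arm motor, was at 143, 130 and 139 CPM in ERG libraries 1 to 3 and at 151, 159 and 150 CPM in vector libraries 1 to 3 (log2 -0.16, edgeR adjusted p = 0.549). It was the only mitotic member whose groups did not overlap. Groups were free of overlap for 21.8% of all tested genes, 9.54% with ERG below. KIF2C was at 138, 128 and 146 CPM with ERG and at 114, 159 and 139 CPM with vector (log2 0.00, edgeR adjusted p = 0.994). KIF11, the plus-end motor that pushes spindle poles apart, was at 117, 123 and 160 CPM with ERG and at 85.3, 156 and 142 CPM with vector (log2 0.06, edgeR adjusted p = 0.922). KIFC1, a minus-end motor that gathers spindle poles, was at 83.0, 81.2 and 99.4 CPM with ERG and at 70.0, 87.0 and 77.4 CPM with vector (log2 0.17, edgeR adjusted p = 0.605). The remaining members were the cytokinesis motors KIF14, KIF20A, KIF20B and KIF23, the chromokinesins KIF4A and KIF4B, the kinetochore and astral microtubule regulators KIF18A and KIF18B, and the spindle motor KIF15.

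**Figure D3:**
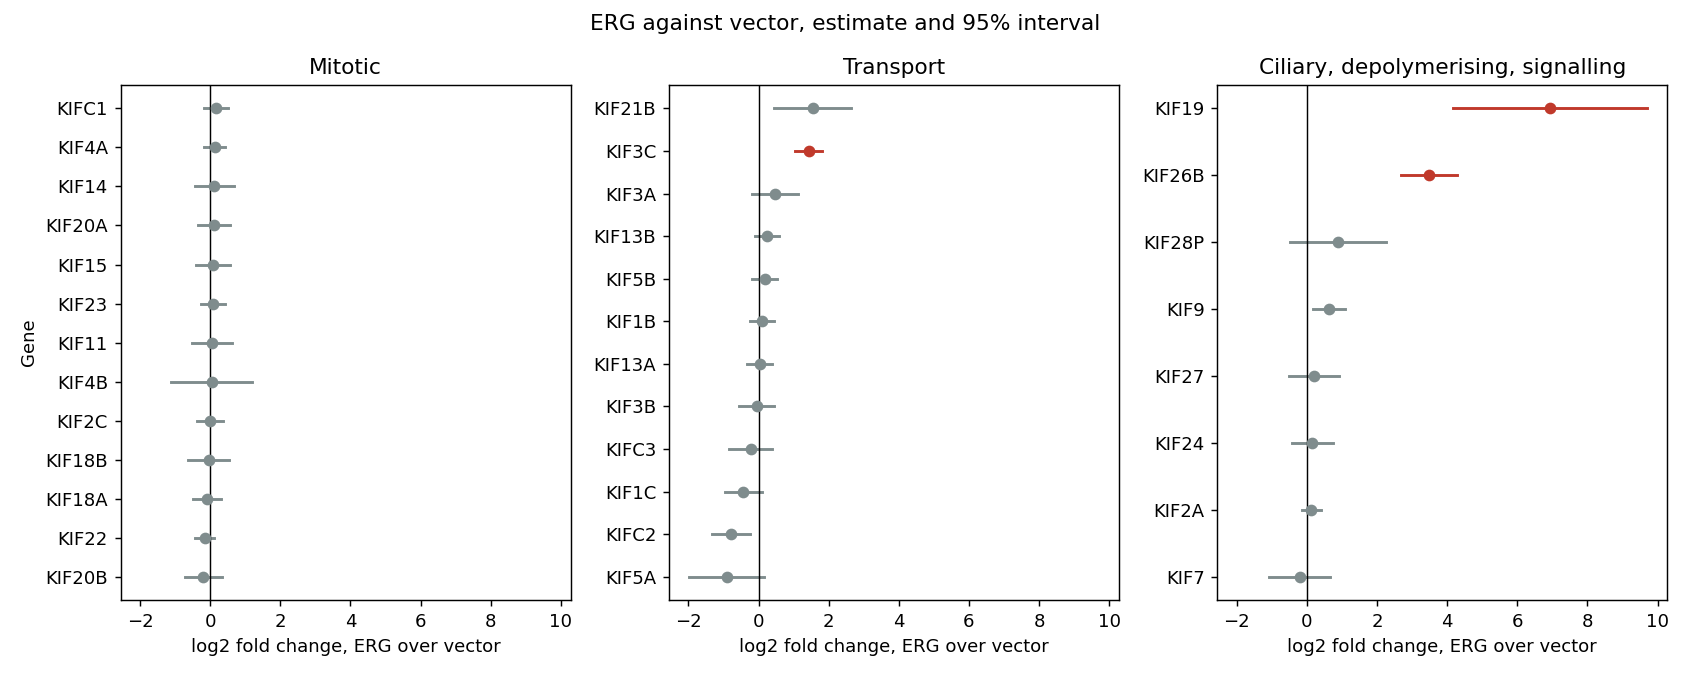
log2 fold change of ERG over vector (x axis) with its 95% interval for each of the 33 kinesin genes, in 3 panels by role, with genes at an edgeR adjusted p under 0.05 in red. Mitotic estimates lie between -0.19 and 0.17, and KIF3C, KIF26B and KIF19 are the red points, all to the right of 0.

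The mean level of the mitotic kinesins varied more among the vector libraries than between the groups. Vector replicate 1 was the lowest of the 6 libraries in 12 of 13 of them, while it was the lowest for 19.5% of all tested genes. KIF14 had 64.8, 72.0 and 73.0 CPM in ERG libraries 1 to 3 and 40.2, 76.4 and 76.1 CPM in vector libraries 1 to 3. KIF20B had 55.8, 55.3 and 71.5 CPM with ERG and 48.4, 81.2 and 78.6 CPM with vector. As a mean over the 13 genes, ERG libraries 1 to 3 stood at -0.03, -0.04 and 0.16 from the mean of all libraries on the log2 scale, and vector libraries 1 to 3 at -0.43, 0.19 and 0.16. The 9 proliferation genes were at -0.18, -0.19 and 0.35 with ERG and at -0.43, 0.14 and 0.30 with vector, and 7 of them were lowest in vector 1. Spindle partners, 26 genes that include Aurora kinases and kinetochore proteins, were at 0.00, -0.02 and 0.09 with ERG and at -0.23, 0.11 and 0.05 with vector, with 17 lowest in vector 1. Without vector replicate 1 the median log2 fold change of the mitotic kinesins was -0.12, and without ERG replicate 3 it was -0.04. Without ERG 1, ERG 2, vector 2 or vector 3 it was 0.07, 0.08, 0.14 and 0.15. With the set term it was 0.19, or 0.17 with ERG 1 and ERG 2 also summed, against 0.00 over all tested genes. There were 0 mitotic calls in each case.

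**Figure D4:**
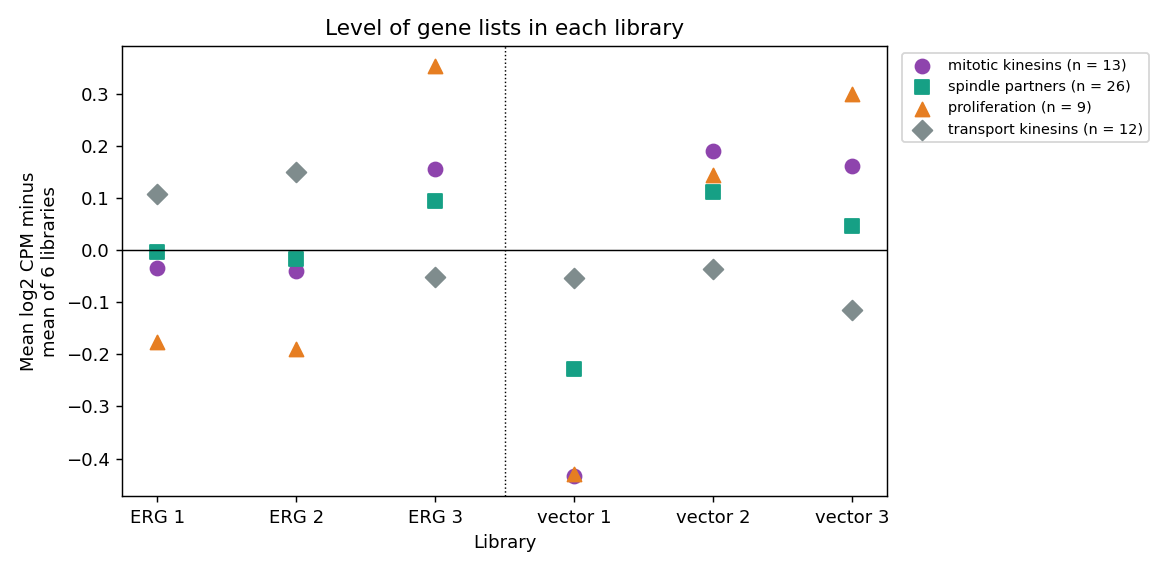
Mean log2 CPM of 4 gene lists in each library, as the difference from the mean of the 6 libraries, with ERG libraries left of the dotted line and vector libraries right of it. Mitotic kinesins, spindle partners and proliferation genes are lowest in vector 1 (-0.43, -0.23 and -0.43), and transport kinesins stay between -0.12 and 0.15.

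The promoters of the mitotic kinesins were searched for sequences known from late cell cycle genes. Genes of this branch are mostly such genes, so the shares below are a description and not a separate finding. The CHR element (TTTGAA or TTCGAA) is bound in late cell cycle genes by the MuvB core of the DREAM and MYB complexes, and CCAAT by the factor NF-Y. A CHR sequence on either strand was found in 11 of 13 mitotic kinesin promoters, in 2 of the 11 other kinesin promoters in the table (KIF24 and KIF5B), and in 16.4% of all 35116 promoters. CCAAT was found in 10 of 13 mitotic and 4 of 11 other kinesin promoters, and in 34.6% of all promoters. The 30-base windows that hold the CHR match nearest the start are shown for the 11 mitotic genes, with the match in capitals (TTCAAA is TTTGAA on the other strand).
KIF11, chr10:92593090-92593119, plus strand: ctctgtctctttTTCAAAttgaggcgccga
KIF14, chr1:200620733-200620762, minus strand: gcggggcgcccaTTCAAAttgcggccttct
KIF15, chr3:44761747-44761776, plus strand: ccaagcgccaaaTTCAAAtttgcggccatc
KIF18A, chr11:28108149-28108178, minus strand: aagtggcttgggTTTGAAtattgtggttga
KIF18B, chr17:44947754-44947783, minus strand: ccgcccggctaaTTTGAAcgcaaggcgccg
KIF20B, chr10:89701602-89701631, plus strand: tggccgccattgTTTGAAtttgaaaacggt
KIF22, chr16:29790718-29790747, plus strand: ggggaaTTCGAAtgggagaggcgggcccaa
KIF23, chr15:69414282-69414311, plus strand: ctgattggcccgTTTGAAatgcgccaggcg
KIF4A, chrX:70290058-70290087, plus strand: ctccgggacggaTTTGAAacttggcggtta
KIF4B, chr5:155013746-155013775, plus strand: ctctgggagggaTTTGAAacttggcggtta
KIFC1, chr6:33391815-33391844, plus strand: tggccgttggaaTTCAAAagtggcgggtgt
The first base of the match lay between 55 bases before and 24 bases after the RefSeq start in 10 of the 11 genes, and 244 bases before it in KIF22. In GENCODE KIF22 begins at 29790719, inside its printed window. KIF20A and KIF2C had no match in their promoters. KIF4B is a copy of KIF4A and their printed windows are nearly identical, so the pair are not separate instances. A match is a description of sequence and not a site.

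Of the 8 ciliary, depolymerising and signalling members, 2 (KIF19 and KIF26B) rose and 0 fell, where 2.2% of all tested genes passed. Their median log2 fold change over the 8 was 0.41. KIF9, a motor of sperm tails and motile cilia in the mouse, was at 9.77, 9.93 and 9.64 CPM in ERG libraries 1 to 3 and at 6.16, 6.09 and 6.75 CPM in vector libraries 1 to 3. The groups were tight and apart, but the log2 difference of 0.63 (SE 0.19) did not pass (edgeR adjusted p = 0.165; 0.0541 with the set term). Of its exon bases 14.9% are shared with KIF9-AS1 on the opposite strand. KIF28P, annotated as a pseudogene, was at 8.36, 8.15 and 2.65 CPM with ERG and at 6.16, 1.98 and 2.15 CPM with vector, high in ERG 1, ERG 2 and vector 1 alike (log2 0.90, edgeR adjusted p = 0.503). KIF28P shares 27.2% of its exon bases with LINC01341 on the opposite strand and 2.3% with AHCTF1 on the same strand. KIF2A, a depolymerase of spindle and interphase microtubules, was at 73.3 ± 2.60 CPM with ERG and 67.0 ± 4.10 CPM with vector (log2 0.13, edgeR adjusted p = 0.63). KIF7, which organises the ciliary tip in Hedgehog signalling, was at 20.1 ± 9.26 CPM with ERG and 23.2 ± 8.42 CPM with vector (log2 -0.21, edgeR adjusted p = 0.81). KIF24, which restrains cilium formation at the centriole, and KIF27, a relative of KIF7, differed by 0.16 and 0.19 on the log2 scale (edgeR adjusted p = 0.786 and 0.79).

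Calls among genes that work with kinesins are set beside those among all tested genes, of which 2.2% passed in the edgeR fit and 13.2% with the set term. None of the 15 tested motor partners and adaptors, 26 spindle partners, 15 tubulins, 22 dynein and dynactin genes, 16 intraflagellar transport genes or 9 proliferation genes passed in the edgeR fit, with 1, 1, 3, 1, 3 and 1 of them at an unadjusted p under 0.05, a share of 15.9% among all tested genes. With the set term 1, 0, 2, 2, 2 and 1 passed. Among the motor partners and adaptors PLEKHM2, a lysosomal adaptor that binds kinesin-1, differed by -0.46 on the log2 scale (edgeR adjusted p = 0.262; with the set term -0.58, 0.00456). The microtubule polymerase CKAP5 and the spindle factor TPX2 stood at log2 fold changes of -0.02 and 0.00 (edgeR adjusted p = 0.971 and 0.997). TUBA1B and TUBB, the main tubulins here, had -0.24 and -0.21 (0.735 and 0.797), and the dynein heavy chain DYNC1H1 and dynactin DCTN1 had -0.03 and 0.23 (0.956 and 0.516). The intraflagellar transport members IFT122 and IFT172 had -0.65 and 0.39 (edgeR adjusted p = 0.0562 and 0.24; for IFT122 with the set term -0.62, 0.00614), and the replication helicase subunits MCM7 and MCM4 -0.05 and -0.10 (0.927 and 0.93).

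By Pearson r of log2 CPM over the 6 libraries, the tested genes whose pattern was most like that of KIF19 were MYH9 (r = 0.9998), TAB2, PRRT2, RC3H2 and ZNF844 (0.9941). Those most like KIF26B were TGFB1 (0.9995), LOC112268224, LOC105374338, SPOCK2 and CPA3 (0.995). They are the best of 14203 genes over 6 points, of which ERG 1 and ERG 2 nearly coincide, and so describe these libraries only.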

How the data were processed

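Poly-A RNA was captured on oligo-dT beads and primed with random hexamers, per the labels' protocols. The submitters' processing notes name hg38 and edgeR 3.32.1; aligner, counter, annotation and strand are not given in the sources used here. The deposited table holds whole-number counts per gene, although named as CPM, and had been filtered before deposit (second-highest CPM at least 1.01 in every gene). Control columns were taken as the vector samples, the only group besides ERG, and 0 columns were left unused.

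A gene was tested if at least 3 libraries held at least 1 CPM of it (14203 tested, 618 left out), with edgeR 4.0.16 in R 4.3.3: TMM, quasi-likelihood test, two-sided, Benjamini-Hochberg adjustment over all tested genes, threshold 0.05. CPM values use TMM library sizes. The script was tested on simulated data. DESeq2 1.42.0 and limma 3.58.1 (voom) were alternatives, with the filters, scalings, left-out libraries, replicate block, library set term and summed ERG replicates 1 and 2 named in the closing section. SE is the size of the log2 fold change divided by the square root of F.

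The members, lists, motifs and library sets were chosen with earlier results of these data known. Named in full are KIF19, KIF26B, members past the threshold with or without the set term, and the 4 mitotic and 4 transport kinesins with the highest CPM; of partner lists, the 2 with the highest CPM, of which 1 is not reported here. Other members named with values were chosen after their values were seen. KIF28P, which the rule takes, was placed with the ciliary, depolymerising and signalling members. Of 42 kinesins listed by role, 10 are not analysed here. All 33 members matched GENCODE release 29 by name, which gave coordinates and exon lengths.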

Additional observations from a re-analysis of the deposited data

How the results depend on the processing

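Of the alternatives run, DESeq2 called 1006 genes (5 kinesins, 3 of them transport), the library set term 1869 (7, 5 transport), and summing ERG replicates 1 and 2 called 0 genes (1001 with the set term added, of which 2 transport kinesins, a setting chosen after seeing the data). With summed replicates edgeR gave kinesins 0 calls (1277 genes, 6 of them kinesins, at an unadjusted p under 0.05), as it gave the transport and the ciliary, depolymerising and signalling members. KIF19 was not tested with at least 5 CPM in at least 3 libraries and did not pass in limma-voom, so 1 ciliary, depolymerising and signalling member was called in each. The replicate numbers do not pair the libraries (deviations of same-numbered libraries correlate at 0.628, -0.285 and 0.589). With the replicate block 905 genes passed, 6 kinesins among them and 4 of these transport, with KIF21B, KIFC2 and KIF5A at edgeR adjusted p of 0.0295, 0.0329 and 0.0117. Leaving out 1 library gave 0 to 441 genes (0 in edgeR without ERG replicate 1 or 2, with 1278 and 1256 at an unadjusted p under 0.05), 0 to 4 kinesins, 0 to 2 transport and 0 to 2 ciliary, depolymerising and signalling members. Mitotic kinesins had 0 calls in every alternative. The cause of these moves was not tested.

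KIF19, KIF26B, KIF3C, KIF21B, KIF3A, KIF5A, KIFC2, KIF22, KIFC1 and KIF5B kept their sign in every alternative in which they were tested. KIF2C, at a log2 difference of 0.00 (just under 0), was positive without TMM factors (0.05), with upper-quartile factors (0.04), the 5 CPM filter (0.02), limma-voom (0.01), the replicate block (0.01), the set term (0.09) and summed replicates (0.02, or 0.07 with the set term), and ran from -0.12 to 0.12 with 1 library left out. KIF11 turned negative without ERG replicate 3 (-0.09) or vector replicate 1 (-0.16), with a range of -0.16 to 0.23 when 1 library was left out. KIF13A turned negative with the set term (-0.06), summed replicates (-0.01, or -0.05 with the set term) and without ERG replicate 2 (-0.02) or vector replicate 3 (-0.06), and ran from -0.06 to 0.13 with 1 library left out. None of these passed. KIF19 in vector libraries rests on 2 counts, so its fitted log2 change (6.04 to 9.70 over the alternatives) is no measure of size.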
